A study of Mus musculus with 9 samples.

Results

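The collagen genes of the mouse uterus were described across 9 RNA sequencing libraries. Every gene whose symbol consists of Col, a number, the letter a and a second number was taken, which gave 44 of the 18094 genes in the count table. The rule used names only and no measured value, but the family was chosen with earlier results of these data known. The libraries came from the uterus of female mice aged 13 weeks, 3 mice in each of 3 groups, and the labels name neither the strain nor the stage of the estrous cycle. Control mice received the feeding mixture without drug as newborns. Tamoxifen mice were fed tamoxifen at 1 mg/kg on postnatal days 1 to 5, a neonatal exposure that serves as a model of adenomyosis, the presence of endometrial tissue within the myometrium. Both of these groups received vehicle as adults. Tamoxifen+primidone mice were fed tamoxifen in the same way and then received primidone, an anticonvulsant, at 2 mg/kg per day by intraperitoneal injection for 3 weeks from week 10. No group received primidone without tamoxifen.

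Collagens are secreted proteins built from 3 polypeptide chains wound into a triple helix, and each gene encodes 1 chain. Fibrillar collagens form the tensile cables of connective tissue, type IV collagens form the sheet of basement membranes, and type VI collagens form beaded filaments close to cells. In the uterus they fill the endometrial stroma, sheathe the smooth muscle bundles of the myometrium, and line glands and vessels.

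Total counts ran from 36393120 to 39958443 per library. Markers of uterine tissue were present in each library: summed FPKM (a level scaled by gene length and library size, as the authors deposited it) ran from 2271 to 4776 for 8 smooth muscle genes, from 1772 to 2851 for 8 stromal fibroblast genes and from 1592 to 2215 for 8 epithelial genes. Smooth muscle sums were 4452, 2929 and 4776 in controls, 2571, 2330 and 2831 with tamoxifen and 2911, 2271 and 2719.9 with tamoxifen+primidone. Both treated groups thus lay below every control. Adipocyte sums were 121 in tamoxifen replicate 3 and 144 in tamoxifen+primidone replicate 2, against 19.5 to 39.96 in the other 7 libraries. Sums of 5 proliferation genes were 8.92 to 10.7 with tamoxifen, 25.8 to 34.9 in controls and 10.0 to 34.4 with tamoxifen+primidone. Summed FPKM lay at 103 to 133 for endothelium, 51.0 to 67.2 for pericytes, 255 to 460 for mesothelium, 76.4 to 114 for leukocytes, 7.69 to 60.3 for stratified squamous epithelium, 19.4 to 48.0 for skeletal muscle, 5.20 to 10.7 for Schwann cells, and 0.749 to 1.72 for cartilage and bone. The mesothelial sum did not show that 4 of its 5 genes were higher than control in both treated groups and 1 lower. Their median log2 fold changes were 1.56 with tamoxifen and 1.63 with tamoxifen+primidone. The 7 ovary and oviduct genes summed to 4.76 to 17.5 in controls, 25.9 to 105 with tamoxifen and 1.80 to 2.88 with tamoxifen+primidone, so the 3 groups did not overlap. Their 4 tested genes had mixed signs against control: 3 positive and 1 negative with tamoxifen, and 1 positive and 3 negative with tamoxifen+primidone. The 8 liver genes summed to 30.1 to 34.8 in controls, 56.4 to 113 with tamoxifen and 126 to 129 with tamoxifen+primidone, and edgeR called 5 and 8 of them higher than control. Beside smooth muscle, the other markers that passed were mesothelial Msln, higher than control in both treated groups (log2 fold change 1.61 with tamoxifen+primidone), and, with tamoxifen+primidone against control, mesothelial Lrrn4 (1.67), fibroblast Mfap5 (0.57), epithelial Cldn4 (-0.31), pericyte Rgs5 (-0.39) and leukocyte Cd68 (-0.59). Cd68 was the only negative leukocyte marker in that comparison: 5 of the 6 were positive, with a median of 0.56 over the list. The part of these differences in the collagen results was not tested, and in whole tissue fewer cells of a type and less RNA per cell cannot be told apart.

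Collagen RNA was dominated by type I, III and VI chains. Col6a1 had the highest mean level over the 9 libraries at 594 FPKM and took 18.1% of the summed collagen FPKM. Col3a1 followed at 556 FPKM, Col1a2 at 519, Col1a1 at 481, Col6a2 at 366 and Col6a4 at 311. The type IV chains Col4a1 and Col4a2 averaged 81.2 and 60.1 FPKM, and Col6a3 averaged 79.8 FPKM. In all, 15 members averaged at least 10 FPKM, 13 averaged 1 to 10 FPKM and 16 averaged under 1 FPKM. The cartilage collagens were at the bottom of the order: Col2a1 had at most 5 counts in any library and Col9a1 at most 6, and the 7 cartilage and bone markers summed to at most 1.72 FPKM. Col2a1, Col9a1 and Col19a1 did not pass the low-count filter, so 41 members were tested.

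**Figure D1:**
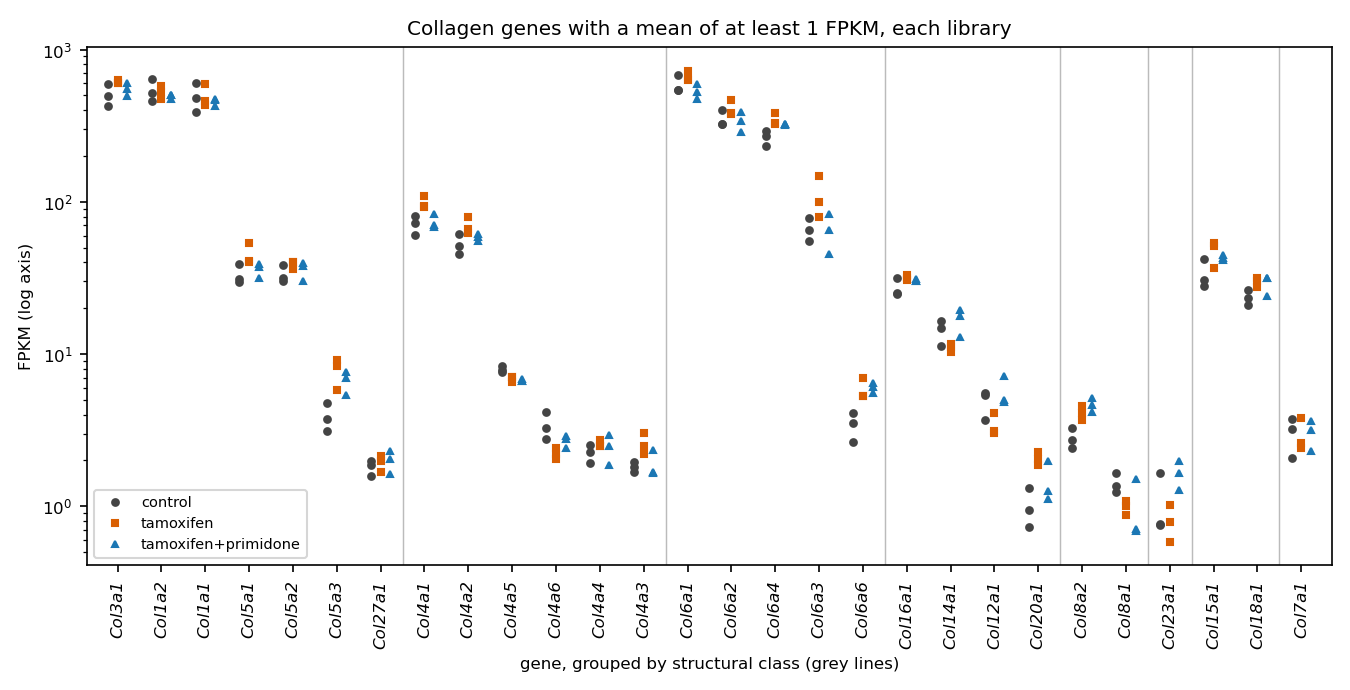
FPKM (log axis) of each collagen gene that averaged at least 1 FPKM, with 1 point per library and genes grouped by structural class between grey lines; circles are control, squares tamoxifen and triangles tamoxifen+primidone libraries. Col6a1, Col3a1, Col1a2 and Col1a1 lie highest, and the points of the 3 groups of most genes lie close together on this scale.

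Few single collagen genes passed the test across all genes. Most log2 fold changes were small, mostly positive for tamoxifen against control and mostly negative for tamoxifen+primidone against tamoxifen. Compared with control, tamoxifen raised Col5a3, a minor fibrillar chain of type V collagen, and no other member passed edgeR's quasi-likelihood test at an adjusted p under 0.05, against 1.53% of the 15186 genes tested (0.573% higher, 0.961% lower). Of the 41 members, 29 had a positive log2 fold change and 12 a negative one, with a median of 0.23, while the median over all genes was 0.00. At an unadjusted p under 0.05 there were 15 members higher and 5 lower, 48.8% of the members against 17.8% of all genes (8.82% higher, 8.95% lower). DESeq2 called 9 members, 7 higher and 2 lower, against 7.11% of all genes by the same tool. On the scale of library-scaled counts without a length correction (CPM), 14 members lay above every control in all 3 tamoxifen libraries and 4 lay below, against 12.7% and 13.4% of all genes.

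With primidone added, no collagen gene differed from tamoxifen at the threshold in edgeR, where 0.0132% of all genes did, and DESeq2 called 5 members, Col12a1, Col24a1, Col4a1, Col6a3 and Col9a2, against 3.78% of all genes by the same tool. The log2 fold change was negative for 31 members and positive for 10, with a median of -0.15 (0.02 over all genes). At an unadjusted p under 0.05, 10 members were lower and 5 higher, 36.6% against 13.8% of all genes. In CPM, 10 members lay below every tamoxifen library and 5 lay above, against 8.55% and 8.08% of all genes. Some markers of other cell types were also lower in this comparison. Of the 8 epithelial markers 7 were negative, with a median of -0.36 and 6 at an unadjusted p under 0.05, and their sums of 1592 to 1864 FPKM lay below the 2051 to 2215 FPKM with tamoxifen. All 5 pericyte markers were negative, with a median of -0.28 and sums of 51.0 to 56.7 FPKM against 59.4 to 67.2 FPKM. The sums of the ovary and oviduct markers lay lower without overlap. Of their 4 tested genes, however, 2 were negative and 2 positive, with log2 fold changes from -7.46 to 0.41. Proliferation and liver markers were positive, 5 of 5 and 8 of 8, with medians of 1.24 and 0.75. The 8 stromal fibroblast markers had no common direction, with 4 positive, 4 negative and a median of 0.10. At an unadjusted p under 0.05, 2 of them were higher and 0 lower. Their sums of 1819 to 2851 FPKM overlapped the 1966 to 2314 FPKM with tamoxifen. EdgeR called none of these markers, and their part in the collagen values was not tested. Compared with control, tamoxifen+primidone raised Col6a6 and Col8a2 in edgeR and lowered no member, where 5.35% of all genes passed (2.14% higher, 3.21% lower). The median over the 41 members was 0.08 (0.01 over all genes), 26 were positive and 15 negative, and 8 had an unadjusted p under 0.05, 19.5% against 23.2% of all genes. DESeq2 called 6 members, against 12% of all genes by the same tool. The median over the members ran from -0.02 to 0.20 over the 19 alternatives, so its direction depended on the processing. In CPM, 6 members lay above every control and 3 below, against 14.1% and 15.1% of all genes. The 3 comparisons share libraries, so their values are given side by side.

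In the test of any difference among the 3 groups, Col6a6 passed in edgeR (adjusted p = 0.0442), against 3.84% of all genes. Without the 2 libraries with high adipocyte sums, edgeR called no member for tamoxifen against control, 1 member, Col13a1, for tamoxifen+primidone against control, and none in the test over the groups. Each control library decided the calls of both comparisons with control: with any 1 of the 3 left out, 0 members passed in either. The labels do not say whether the mice of a group came from different litters, so the p-values measure the spread between these samples.

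**Figure D2:**
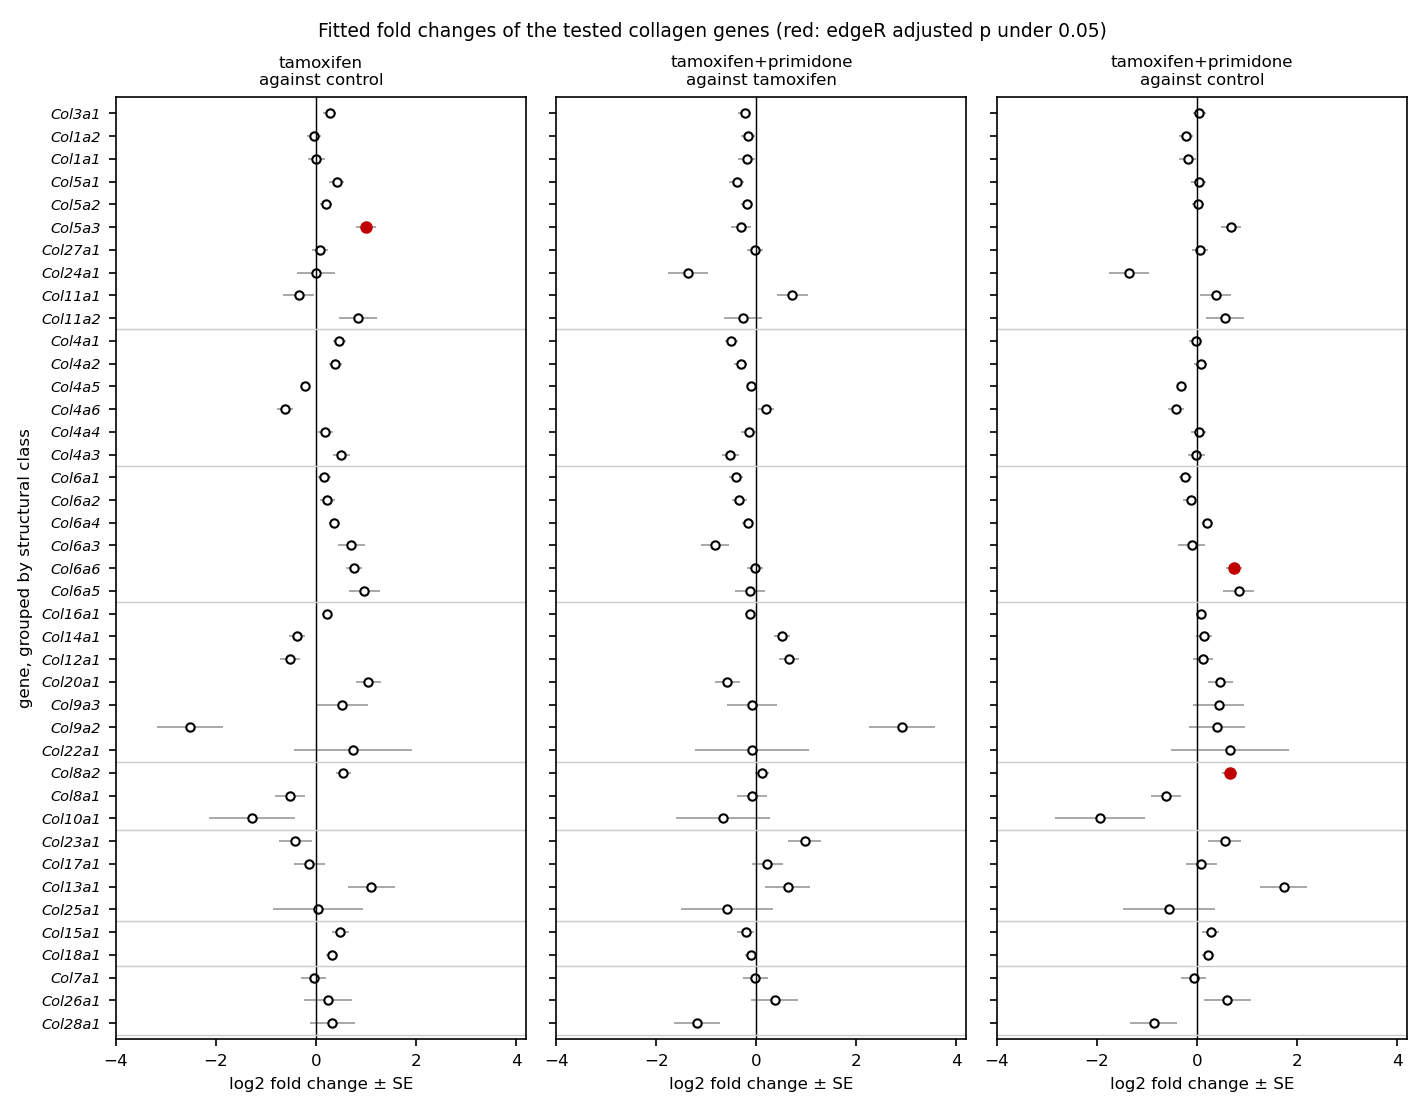
Fitted log2 fold change ± SE (horizontal axis) of the 41 tested collagen genes, 1 row per gene grouped by structural class between grey lines, in the 3 comparisons; red points passed edgeR at an adjusted p under 0.05. The points of the left panel lie mostly to the right of 0 and those of the middle panel mostly to the left, and red points mark Col5a3 on the left and Col6a6 and Col8a2 on the right.

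The stretches of DNA before 5 collagen genes are shown because they belong to the 3 members that passed the test and to the X-linked pair Col4a5 and Col4a6, which lay lower together. The sequences come from RefSeq on GRCm38.p6, a build other than the GRCm39 of the counts, and cover at most 200 bases outside the annotated gene, 5′ to 3′ on the strand of the gene. Capitals mark a CCAAT box (CCAAT or its complement) or a GC box (GGGCGG or its complement).
Col5a3 (chr9:20815118-20815317, minus strand): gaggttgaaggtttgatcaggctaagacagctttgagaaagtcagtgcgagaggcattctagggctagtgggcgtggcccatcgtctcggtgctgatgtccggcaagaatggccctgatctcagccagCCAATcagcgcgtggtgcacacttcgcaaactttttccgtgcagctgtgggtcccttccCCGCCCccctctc
Col6a6 (chr9:105828247-105828335, minus strand): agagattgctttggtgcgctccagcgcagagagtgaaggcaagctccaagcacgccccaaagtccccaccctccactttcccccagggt
Col8a2 (chr4:126286594-126286793, plus strand): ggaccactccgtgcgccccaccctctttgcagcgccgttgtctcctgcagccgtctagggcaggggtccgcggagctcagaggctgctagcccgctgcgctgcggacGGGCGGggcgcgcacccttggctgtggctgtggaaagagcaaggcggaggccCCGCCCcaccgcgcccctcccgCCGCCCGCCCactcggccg
Col4a5 (chrX:141475170-141475369, plus strand): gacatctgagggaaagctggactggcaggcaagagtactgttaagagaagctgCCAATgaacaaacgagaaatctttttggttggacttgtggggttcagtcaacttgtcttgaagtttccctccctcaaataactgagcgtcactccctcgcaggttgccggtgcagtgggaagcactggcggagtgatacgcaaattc
Col4a6 (chrX:141474096-141474295, minus strand): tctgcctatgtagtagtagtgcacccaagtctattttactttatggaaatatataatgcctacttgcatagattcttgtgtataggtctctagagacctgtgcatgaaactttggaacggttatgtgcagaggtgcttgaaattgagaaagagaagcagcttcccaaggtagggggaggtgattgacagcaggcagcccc
The stretch of Col8a2 held 4 GC boxes, 2 of them overlapping, that of Col5a3 1 CCAAT box and 1 GC box, that of Col4a5 1 CCAAT box, and those of Col6a6 and Col4a6 no match. Promoter windows of 300 bases around the start were found for 35 of the 44 members, 38 windows in all. A member counted if any of its windows matched, while the shares over all genes are of single windows. On either strand, GGGCGG was in 22 of these 35 (62.9%) and in 35.7% of the 32851 windows of all genes, CCAAT in 13 (37.1% against 37.4%) and TATAAA in 5 (14.3% against 13.6%). Col6a6, Col4a5 and Col4a6 are among the 22 members with GGGCGG, which in their windows lies outside the stretch printed above. Those printed stretches end 161, 49 and 19 bases before the start. The estrogen response element palindrome was in 0 of 35 (0.07% of all windows), the AP-1 site TGANTCA in 1 and the CArG box, a site known in smooth muscle genes, in 1 (7.81% and 1.63% of all windows). A match says only that these letters occur in the window.

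Among the fibrillar collagens, the type I chains did not differ between the groups beyond their spread. Col1a1, which encodes the alpha 1 chain that makes up most of type I collagen, measured 606, 481 and 386 FPKM in controls, 461, 434 and 591 FPKM with tamoxifen and 426, 467 and 473 FPKM with tamoxifen+primidone. Its partner Col1a2 measured 643, 515 and 462 FPKM, then 523, 476 and 580 FPKM, then 499, 505 and 472 FPKM. Control replicate 1 and tamoxifen replicate 3 were the highest of their groups for Col1a1, and the ranges of all 3 groups overlapped for both genes. The log2 fold changes of tamoxifen against control were 0.01 ± 0.17 (SE) for Col1a1 and -0.04 ± 0.14 for Col1a2. Col3a1, whose product forms type III collagen alone and shares fibrils with type I, measured 596, 492 and 427 FPKM in controls, 634, 599 and 606 FPKM with tamoxifen and 553, 601 and 498 FPKM with tamoxifen+primidone. In FPKM the tamoxifen libraries lay just above the highest control. In CPM the groups overlapped, with control replicate 1 at 3394 and tamoxifen replicate 2 at 3348. The log2 fold change was 0.28 ± 0.13 (edgeR adjusted p = 0.308).

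Of the type V chains, which join type I fibrils and limit their width, Col5a3 rose with tamoxifen, and Col5a1 and Col5a2 did not pass. Col5a3 measured 4.80, 3.76 and 3.10 FPKM in controls (mean 3.89 ± 0.856, SD, n = 3), 5.83, 9.17 and 8.36 FPKM with tamoxifen (7.79 ± 1.74) and 6.91, 7.64 and 5.35 FPKM with tamoxifen+primidone (6.63 ± 1.17). All 6 treated libraries lay above the highest control, and the 2 treated groups overlapped. The log2 fold change of tamoxifen against control was 1.00 ± 0.20 (edgeR adjusted p = 0.0489), and that of tamoxifen+primidone against control was 0.69 ± 0.20 (adjusted p = 0.0801). The call held in 6 of 19 alternatives. It was lost without control replicate 1, 2 or 3 (adjusted p = 0.0875, 0.14 and 0.155), without tamoxifen replicate 1, 2 or 3 (0.051, 0.115 and 0.131), and without tamoxifen+primidone replicate 1 (0.0508), while the log2 fold change stayed between 0.86 and 1.18. Without the 2 libraries with high adipocyte sums it was 0.94 (adjusted p = 0.11).

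Col5a1, the chain found in most type V molecules, measured 39.2, 29.7 and 31.1 FPKM in controls, 40.8, 40.3 and 53.3 FPKM with tamoxifen and 31.6, 39.0 and 37.4 FPKM with tamoxifen+primidone. Each tamoxifen library lay above every library of the other groups. The log2 fold changes were 0.42 ± 0.15 for tamoxifen against control (edgeR adjusted p = 0.177) and -0.39 ± 0.15 for tamoxifen+primidone against tamoxifen (adjusted p = 0.292). Col5a2 ran from 30.3 to 40.5 FPKM over the 9 libraries, with overlapping groups. Col24a1, a minor fibrillar chain, measured 0.589, 0.350 and 0.762 FPKM in controls, 0.515, 0.378 and 0.820 FPKM with tamoxifen and 0.167, 0.221 and 0.309 FPKM with tamoxifen+primidone. The tamoxifen+primidone libraries lay below all the others, with log2 fold changes of -1.36 ± 0.40 against control (edgeR adjusted p = 0.0727) and -1.37 ± 0.40 against tamoxifen (adjusted p = 0.187). Of the remaining fibrillar genes, Col27a1 averaged 1.91 FPKM, Col11a1 0.306 FPKM and Col11a2 0.274 FPKM, and none passed the test. Over the 10 tested fibrillar genes the median log2 fold change was 0.15 for tamoxifen against control (8 positive, 2 negative), -0.21 for tamoxifen+primidone against tamoxifen (1 positive, 9 negative) and 0.04 for tamoxifen+primidone against control (7 positive, 3 negative).

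All 6 type VI genes had positive log2 fold changes with tamoxifen, with a median of 0.54, and all 6 had negative ones when primidone was added, with a median of -0.25. The latter ran from -0.82 to -0.03, and over the 19 alternatives 0 to 2 of the 6 were positive. For tamoxifen+primidone against control 3 were positive and 3 negative, with a median of 0.05. These comparisons share libraries. Col6a1 and Col6a2, the chains that every type VI molecule holds, measured 677, 544 and 545 FPKM and 402, 322 and 323 FPKM in controls. With tamoxifen they measured 627, 637 and 727 FPKM and 386, 375 and 468 FPKM, and with tamoxifen+primidone 470, 527 and 591 FPKM and 288, 342 and 388 FPKM. Control replicate 1 lay inside the tamoxifen range for both, so those groups overlapped. Between tamoxifen+primidone and tamoxifen the log2 fold changes were -0.40 ± 0.14 for Col6a1 (edgeR adjusted p = 0.237) and -0.34 ± 0.15 for Col6a2 (adjusted p = 0.357).

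The chains that complete a type VI molecule beside Col6a1 and Col6a2 had log2 fold changes of different size. Col6a3, the usual partner, measured 77.7, 55.5 and 65.2 FPKM in controls, 99.0, 80.0 and 147 FPKM with tamoxifen and 45.7, 65.1 and 83.3 FPKM with tamoxifen+primidone. Tamoxifen replicate 3, 1 of the 2 libraries with a high adipocyte sum, was the highest of all, yet each tamoxifen library lay above every control. The log2 fold changes were 0.71 ± 0.27 against control (edgeR adjusted p = 0.221) and -0.82 ± 0.28 for tamoxifen+primidone against tamoxifen (adjusted p = 0.244). Col6a4 measured 294, 269 and 234 FPKM in controls, 329, 325 and 381 FPKM with tamoxifen and 325, 325 and 318 FPKM with tamoxifen+primidone. It lay above every control in all 6 treated libraries, with log2 fold changes of 0.37 ± 0.11 (edgeR adjusted p = 0.126) and 0.21 ± 0.11 (adjusted p = 0.305).

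Col6a6, an alternative partner chain, rose with tamoxifen+primidone. It measured 4.10, 3.54 and 2.64 FPKM in controls (3.43 ± 0.734, SD, n = 3), 5.28, 5.33 and 6.96 FPKM with tamoxifen (5.86 ± 0.957) and 5.51, 6.47 and 6.08 FPKM with tamoxifen+primidone (6.02 ± 0.482). All 6 treated libraries lay above every control, and the treated groups overlapped. The log2 fold change was 0.74 ± 0.16 for tamoxifen+primidone against control (edgeR adjusted p = 0.0348), 0.77 ± 0.16 for tamoxifen against control (adjusted p = 0.0505) and -0.03 ± 0.16 between the treated groups (adjusted p = 0.958). The call against control with primidone held in 12 of 19 alternatives. It was lost without control replicate 1, 2 or 3 (adjusted p = 0.0511, 0.0863 and 0.0929), without tamoxifen+primidone replicate 2 or 3 (0.0867 and 0.0725), and without the 2 libraries with high adipocyte sums (log2 fold change 0.69, adjusted p = 0.0728). The third alternative chain, Col6a5, averaged 0.261 FPKM in controls, 0.515 FPKM with tamoxifen and 0.494 FPKM with tamoxifen+primidone, with log2 fold changes of 0.97 ± 0.31 (edgeR adjusted p = 0.14) and 0.84 ± 0.31 (adjusted p = 0.136) against control. Col6a4, Col6a5 and Col6a6 are neighbours on chromosome 9, with 0 protein-coding genes starting between them in the RefSeq annotation.

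**Figure D3:**
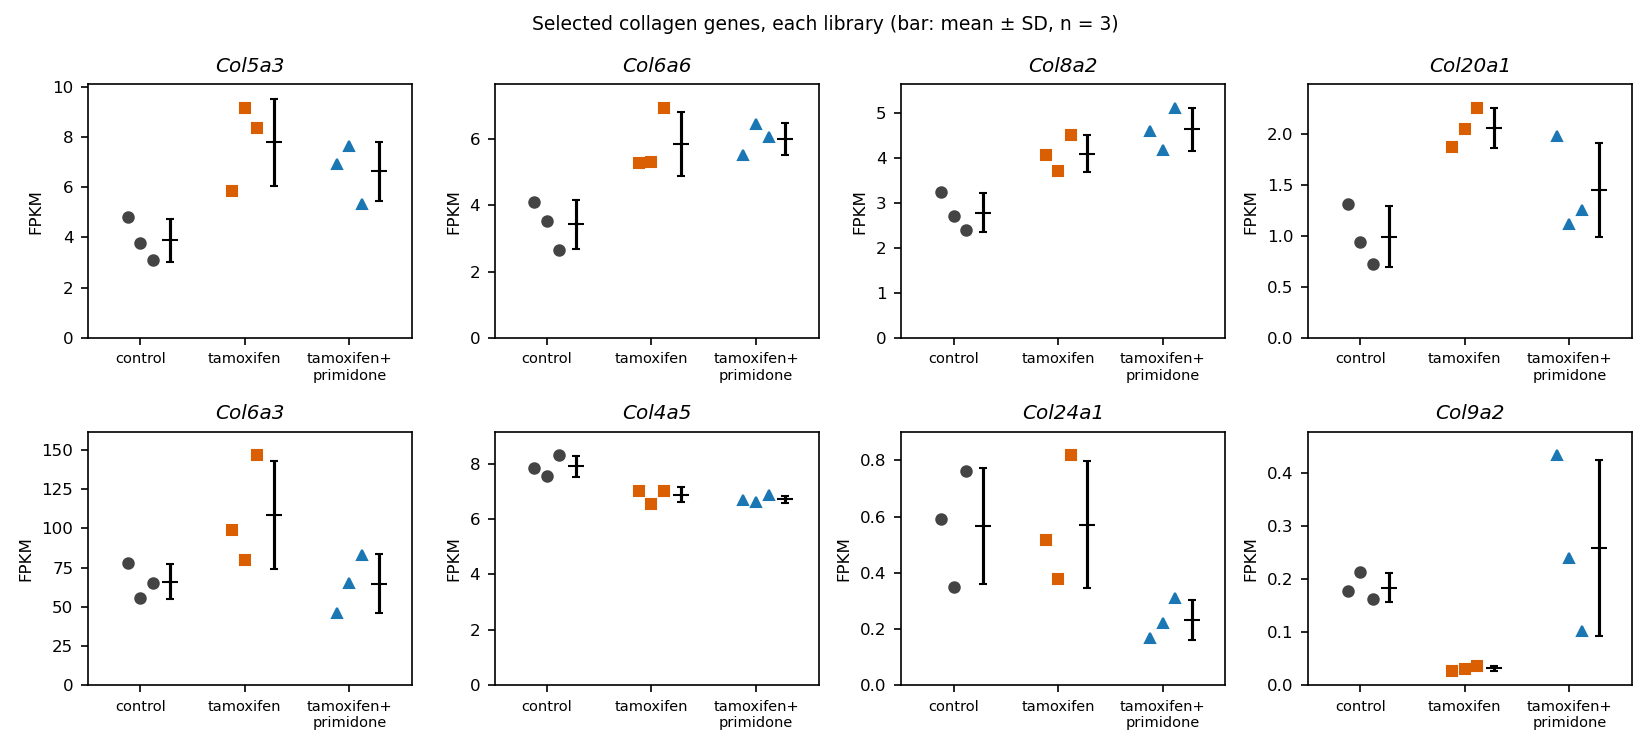
FPKM (vertical axis, from 0) of 8 collagen genes in each library of the 3 groups, with the mean ± SD (n = 3) as a bar beside the points. Col5a3, Col6a6 and Col8a2 lie higher in all 6 treated libraries than in any control, Col6a3 and Col20a1 have their highest mean with tamoxifen, Col4a5 is lower in all 6 treated libraries, Col24a1 is lowest with tamoxifen+primidone, and Col9a2 is lowest with tamoxifen.

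The type IV chains of the basement membrane had log2 fold changes of both signs with tamoxifen, by pair. Type IV collagen is assembled from Col4a1 and Col4a2 in nearly all tissues, from Col4a3, Col4a4 and Col4a5 in kidney and some other epithelia, and from Col4a5 and Col4a6 in sites that include smooth muscle. Col4a1 measured 80.4, 60.5 and 72.0 FPKM in controls, 94.5, 92.5 and 109.7 FPKM with tamoxifen and 70.9, 82.6 and 67.8 FPKM with tamoxifen+primidone. Each tamoxifen library lay above all 6 others. The log2 fold changes were 0.47 ± 0.13 for tamoxifen against control (edgeR adjusted p = 0.0984) and -0.50 ± 0.13 for tamoxifen+primidone against tamoxifen (adjusted p = 0.162). Col4a2 measured 61.1, 45.7 and 51.1 FPKM, then 62.1, 65.8 and 79.3 FPKM, then 58.8, 61.7 and 55.5 FPKM. Its tamoxifen libraries also lay above all 6 others, with a log2 fold change of 0.39 ± 0.13 (edgeR adjusted p = 0.153).

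A further pair that shares a locus, Col4a3 and Col4a4, was far lower than Col4a1 and Col4a2. Col4a3 measured 1.95, 1.67 and 1.81 FPKM in controls, 2.20, 2.51 and 3.05 FPKM with tamoxifen and 1.66, 2.35 and 1.67 FPKM with tamoxifen+primidone, and its tamoxifen libraries lay above every control (log2 fold change 0.51 ± 0.17, edgeR adjusted p = 0.152). Col4a4 ran from 1.88 to 2.94 FPKM with overlapping groups. Col4a1 and Col4a2 start head to head, as do Col4a3 and Col4a4, and Col4a5 and Col4a6. The sources used here do not give the strand setting of the counting, so reads where the genes of a pair overlap cannot be told apart.

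Col4a5 and Col4a6, neighbours on the X chromosome, had negative log2 fold changes with tamoxifen. Col4a5 measured 7.86, 7.58 and 8.33 FPKM in controls, 7.03, 6.56 and 7.03 FPKM with tamoxifen and 6.68, 6.61 and 6.87 FPKM with tamoxifen+primidone. All 6 treated libraries lay below every control, with log2 fold changes of -0.21 ± 0.08 for tamoxifen (edgeR adjusted p = 0.21) and -0.31 ± 0.08 for tamoxifen+primidone (adjusted p = 0.0503). The latter passed in 3 of 19 alternatives. Col4a6 measured 3.28, 2.76 and 4.16 FPKM in controls, 2.43, 2.04 and 2.20 FPKM with tamoxifen and 2.42, 2.76 and 2.91 FPKM with tamoxifen+primidone. Its tamoxifen libraries lay below every control, with a log2 fold change of -0.62 ± 0.16 (edgeR adjusted p = 0.093). Beside these values, the 8 smooth muscle markers had negative log2 fold changes with tamoxifen, with a median of -0.60, and edgeR called none of them, while 5 had an unadjusted p under 0.05 and Actg2 and Myh11 passed for tamoxifen+primidone against control (-1.18 ± 0.22 and -0.69 ± 0.16, edgeR adjusted p = 0.0209 and 0.0357). Their part in the type IV values was not tested. The ratio of Col4a5 to Col4a1 FPKM within a library, chosen after the values were seen and not tested, was 0.0978, 0.125 and 0.116 in controls, 0.0744, 0.0709 and 0.0641 with tamoxifen and 0.0943, 0.0800 and 0.101 with tamoxifen+primidone.

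**Figure D4:**
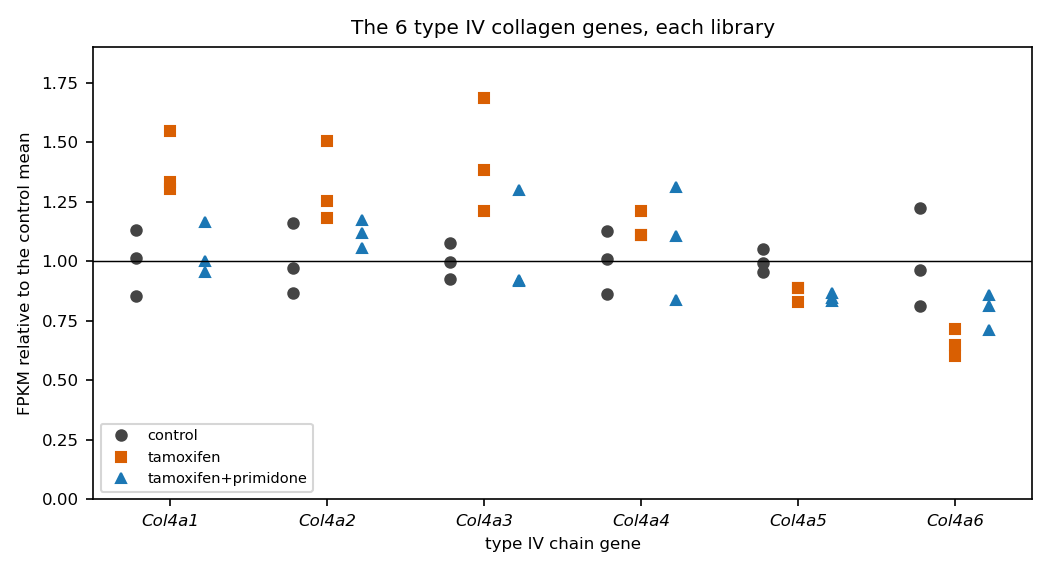
FPKM of the 6 type IV genes in each library, divided by the mean of the 3 control libraries of that gene (vertical axis, line at 1), with 1 column of points per group. With tamoxifen (squares), Col4a1, Col4a2 and Col4a3 lie above the controls and Col4a5 and Col4a6 below them, while Col4a4 overlaps.

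The fibril-associated collagens, which bind to the surface of fibrils and link them to other matrix, showed no common direction with tamoxifen: 4 of 7 tested genes were positive and 3 negative. Col14a1, which coats type I fibrils, measured 16.6, 14.8 and 11.3 FPKM in controls, 10.3, 11.1 and 11.7 FPKM with tamoxifen and 19.3, 17.9 and 12.9 FPKM with tamoxifen+primidone. Col12a1, a related chain, measured 5.37, 5.58 and 3.71 FPKM, then 4.10, 3.12 and 3.01 FPKM, then 4.96, 7.15 and 4.84 FPKM. For both genes the tamoxifen+primidone libraries lay above every tamoxifen library, with log2 fold changes of 0.52 ± 0.16 for Col14a1 (edgeR adjusted p = 0.207) and 0.65 ± 0.20 for Col12a1 (adjusted p = 0.215). Col16a1 ran from 24.8 to 33.3 FPKM.

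Col20a1, a fibril-associated chain of low level, measured 1.31, 0.943 and 0.727 FPKM in controls, 1.87, 2.05 and 2.26 FPKM with tamoxifen and 1.98, 1.12 and 1.26 FPKM with tamoxifen+primidone. The tamoxifen libraries lay above every control and the log2 fold change was 1.05 ± 0.25 (edgeR adjusted p = 0.0758, called in 4 of 19 alternatives). Col9a2, a chain of cartilage type IX collagen, rested on few reads: 19, 22 and 17 counts in controls, 3, 3 and 4 with tamoxifen and 44, 25 and 11 with tamoxifen+primidone. The tamoxifen libraries lay below all the others. The summed counts per total counts with tamoxifen were 0.170 times those of control (exact 95% interval 0.0777 to 0.336, counting error only), and the fitted log2 fold changes of -2.51 ± 0.66 against control (edgeR adjusted p = 0.0917) and 2.92 ± 0.66 for tamoxifen+primidone against tamoxifen (adjusted p = 0.125) did not pass. Col9a3 averaged 0.201 FPKM and Col22a1 0.0398 FPKM. Compared with control, all 7 tested genes of the class were positive with tamoxifen+primidone, with a median of 0.40, and none passed in edgeR or had an unadjusted p under 0.05; DESeq2 called none of them either.

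Col8a2, a short-chain collagen that forms hexagonal nets beneath endothelium and in vessel walls, rose with tamoxifen+primidone. It measured 3.26, 2.71 and 2.41 FPKM in controls (2.79 ± 0.432, SD, n = 3), 4.08, 3.71 and 4.52 FPKM with tamoxifen (4.10 ± 0.409) and 4.61, 4.18 and 5.13 FPKM with tamoxifen+primidone (4.64 ± 0.476). Every treated library lay above every control. The log2 fold changes against control were 0.66 ± 0.15 with primidone (edgeR adjusted p = 0.0339, called in 11 of 19 alternatives) and 0.55 ± 0.15 without it (adjusted p = 0.093). The call was lost without control replicate 1, 2 or 3 (adjusted p = 0.0525, 0.0919 and 0.112), without tamoxifen replicate 1 (0.0515), without tamoxifen+primidone replicate 1 or 3 (0.0552 and 0.0771), with only the 6 libraries compared (0.0522), and without the 2 libraries with high adipocyte sums (log2 fold change 0.73, adjusted p = 0.0564). Its partner Col8a1 had the opposite sign: 1.66, 1.24 and 1.35 FPKM in controls, 1.09, 0.876 and 0.997 FPKM with tamoxifen and 0.706, 1.52 and 0.692 FPKM with tamoxifen+primidone. The log2 fold changes of Col8a1 against control were -0.52 ± 0.30 (edgeR adjusted p = 0.401) and -0.62 ± 0.30 (adjusted p = 0.25). Col10a1, the collagen of hypertrophic cartilage, averaged 0.0981 FPKM.

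Of the multiplexins, whose ends are cleaved into fragments that act on vessels, Col15a1 measured 42.3, 27.8 and 30.6 FPKM in controls, 36.9, 51.2 and 53.6 FPKM with tamoxifen and 41.4, 44.9 and 42.6 FPKM with tamoxifen+primidone. Col18a1, the source of endostatin, measured 26.4, 23.5 and 21.1 FPKM, then 27.4, 30.4 and 31.4 FPKM, then 31.5, 31.6 and 24.0 FPKM. Control replicate 1 overlapped the tamoxifen range for Col15a1, and for Col18a1 the tamoxifen libraries lay above every control. Their log2 fold changes with tamoxifen were 0.49 ± 0.17 (edgeR adjusted p = 0.181) and 0.32 ± 0.12 (adjusted p = 0.188). The 4 transmembrane collagens, which stay anchored in the cell membrane, were low. Col13a1 measured 0.0951, 0.133 and 0.0813 FPKM in controls, 0.190, 0.192 and 0.284 FPKM with tamoxifen and 0.329, 0.175 and 0.580 FPKM with tamoxifen+primidone. It lay above every control in all 6 treated libraries, with a log2 fold change of 1.74 ± 0.47 for tamoxifen+primidone against control (edgeR adjusted p = 0.0608). Col23a1 averaged 1.16 FPKM, Col17a1 of epithelial hemidesmosomes 0.951 FPKM and Col25a1 0.0437 FPKM. Among the rest, Col7a1, the anchoring fibril chain beneath epithelia, averaged 3.00 FPKM with log2 fold changes from -0.06 to -0.02, Col26a1 averaged 0.450 FPKM and Col28a1 0.189 FPKM, and none of these passed.

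Ratios between chains were compared within libraries, where scaling cancels out, for chains that share a molecule (such as Col1a1 and Col1a2) and for chains of different types that share fibrils (Col3a1, Col5a1 and Col5a2, each to Col1a1). With 3 against 3 libraries the exact two-sided permutation test cannot give a p under 0.1, so none of the 21 comparisons could pass. The ratio of Col1a1 to Col1a2 FPKM ran from 0.837 to 1.02 over the 9 libraries, and that of Col6a1 to Col6a2 from 1.52 to 1.70. For Col6a1 to Col6a2 the tamoxifen+primidone libraries (1.63, 1.54 and 1.52) lay below every control (1.68, 1.69 and 1.69; exact permutation p = 0.1, adjusted p = 0.42). The ratio of Col4a1 to Col4a2 was 1.31, 1.32 and 1.41 in controls and 1.52, 1.41 and 1.38 with tamoxifen. With tamoxifen+primidone it was 1.20, 1.34 and 1.22, below every tamoxifen library (exact permutation p = 0.1, adjusted p = 0.42). The ratio of Col6a3 to Col6a1 was 0.115, 0.102 and 0.120 in controls, 0.158, 0.126 and 0.202 with tamoxifen and 0.0972, 0.124 and 0.141 with tamoxifen+primidone. The tamoxifen libraries lay above every control, a mean log2 difference of 0.51 (exact permutation p = 0.1, adjusted p = 0.42). The ratio of Col5a1 to Col1a1 was 0.0647, 0.0618 and 0.0804 in controls and 0.0885, 0.0929 and 0.0902 with tamoxifen, again without overlap (log2 difference 0.40, exact permutation p = 0.1, adjusted p = 0.42). With tamoxifen+primidone it was 0.0741, 0.0836 and 0.0791, below every tamoxifen library (log2 difference -0.20, exact permutation p = 0.1, adjusted p = 0.42). The ratio of Col3a1 to Col1a1 was 0.983, 1.02 and 1.11 in controls, 1.38, 1.38 and 1.03 with tamoxifen and 1.30, 1.29 and 1.05 with tamoxifen+primidone, with replicate 3 of each treated group inside the control range.

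Summed over the 44 genes, collagen reads made up 2.11%, 1.71% and 1.58% of all counts in controls (1.80% ± 0.274, SD, n = 3), 2.01%, 1.93% and 2.33% with tamoxifen (2.09% ± 0.211) and 1.73%, 1.89% and 1.85% with tamoxifen+primidone (1.82% ± 0.0797). Tamoxifen and control overlapped, with a difference of 0.287 percentage points (exact permutation p = 0.3). The tamoxifen+primidone libraries lay below every tamoxifen library, a difference of -0.267 points (exact permutation p = 0.1, the smallest 3 against 3 can give). Against control, tamoxifen+primidone differed by 0.0206 points (exact permutation p = 0.9). Single libraries stood out: control replicate 1 was the highest of its group in 29 of 41 tested members, tamoxifen replicate 3 in 27 and tamoxifen+primidone replicate 2 in 21.

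Genes that fold, process, bind and break down collagen were read from 4 lists, chosen with earlier results of these data known. Of the 56 genes listed, 53 were tested. With tamoxifen, edgeR called 2 of them higher and 3 lower than control (1.53% of all genes), and with tamoxifen+primidone 3 higher and 2 lower (5.35% of all genes). Between tamoxifen+primidone and tamoxifen edgeR called 0, while 1 member was higher and 10 were lower at an unadjusted p under 0.05 (20.8% of the 53, against 13.8% of all genes, 6.3% higher and 7.51% lower). DESeq2 called 4 of them, lower, against 3.78% of all genes. Of the 21 folding and modification genes, 14 were positive with tamoxifen, with a median of 0.14, and 2 passed. Of the other lists, 10 of 14 processing and crosslinking genes, 5 of 10 receptors and 5 of 8 breakdown genes were positive, and 1 of each passed, lower.

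P4ha1 and P4ha2, which encode catalytic subunits of prolyl 4-hydroxylase, the enzyme that makes the hydroxyproline that holds the triple helix together, rose in both treated groups. P4ha1 measured 9.07, 8.44 and 8.55 FPKM in controls, 17.1, 20.3 and 15.8 FPKM with tamoxifen and 14.3, 16.2 and 19.2 FPKM with tamoxifen+primidone. No treated library overlapped the controls, and the log2 fold changes were 1.02 ± 0.13 (edgeR adjusted p = 0.00902) and 0.85 ± 0.13 (adjusted p = 0.00915), called in 19 of 19 alternatives each. P4ha2 measured 7.60, 7.08 and 7.46 FPKM, then 12.8, 16.0 and 13.8 FPKM, then 11.9, 13.7 and 17.8 FPKM, with log2 fold changes of 0.94 ± 0.15 (edgeR adjusted p = 0.0236) and 0.90 ± 0.15 (adjusted p = 0.0129). Its call with tamoxifen was lost without control replicate 1, 2 or 3 (adjusted p = 0.0906, 0.0671 and 0.096), without tamoxifen replicate 1, 2 or 3 (0.0516, 0.0572 and 0.0681), and without the 2 libraries with high adipocyte sums (0.0588). That with tamoxifen+primidone was lost without control replicate 1 or 3 (0.0542 and 0.052).

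Serpinh1, the collagen chaperone HSP47 of the endoplasmic reticulum, rose with tamoxifen+primidone. It measured 196, 173 and 167 FPKM in controls, 262, 251 and 304 FPKM with tamoxifen and 250, 266 and 391 FPKM with tamoxifen+primidone. The treated libraries lay above every control, with log2 fold changes of 0.61 ± 0.17 (edgeR adjusted p = 0.107) and 0.69 ± 0.17 (adjusted p = 0.0477). The latter call was lost without any 1 library other than tamoxifen+primidone replicate 1: adjusted p = 0.11, 0.126 and 0.145 without control replicate 1, 2 or 3, 0.0714, 0.0532 and 0.0578 without tamoxifen replicate 1, 2 or 3, and 0.0652 and 0.066 without tamoxifen+primidone replicate 2 or 3. Without the 2 libraries with high adipocyte sums it was 0.0725. The call was also lost with only the 6 libraries compared (0.078) and with unfiltered limma (0.0539). Plod1, a lysyl hydroxylase, measured 27.7, 27.9 and 22.6 FPKM in controls, 33.5, 36.7 and 33.1 FPKM with tamoxifen and 26.0, 27.9 and 28.5 FPKM with tamoxifen+primidone. It was highest in the tamoxifen libraries (log2 fold change 0.40 ± 0.09, edgeR adjusted p = 0.0663). P3h1, a prolyl 3-hydroxylase, and Mia3, needed to export procollagen from the endoplasmic reticulum, had log2 fold changes of 0.47 ± 0.15 and -0.32 ± 0.09 for tamoxifen+primidone against control (edgeR adjusted p = 0.09 and 0.0605).

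The members that fell belong to the other lists. Adgrg1, an adhesion receptor known to bind type III collagen, measured 15.1, 14.5 and 17.0 FPKM in controls, 10.5, 8.40 and 10.7 FPKM with tamoxifen and 8.23, 10.4 and 10.1 FPKM with tamoxifen+primidone, with log2 fold changes of -0.65 ± 0.13 (edgeR adjusted p = 0.042) and -0.77 ± 0.13 (adjusted p = 0.0129). All 6 treated libraries lay below the controls. Its call with tamoxifen was lost without any 1 control or tamoxifen library (adjusted p = 0.0733 to 0.145 over these 6), without the 2 libraries with high adipocyte sums (0.0684) and with unfiltered limma (0.0709). Its call with tamoxifen+primidone was lost without control replicate 1 or 3 (0.0517 and 0.0546). Itga1, the alpha 1 integrin chain that binds collagen, measured 6.81, 6.92 and 6.07 FPKM, then 5.43, 4.39 and 4.67 FPKM, then 4.15, 4.26 and 4.62 FPKM. It fell with tamoxifen+primidone (log2 fold change -0.68 ± 0.11, edgeR adjusted p = 0.0109, and 0.0525 without control replicate 1), and with tamoxifen it did not pass (-0.45 ± 0.11, adjusted p = 0.0726).

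Timp3, an inhibitor of metalloproteinases that stays bound to the matrix, measured 67.9, 66.5 and 62.4 FPKM in controls, 49.7, 45.8 and 48.6 FPKM with tamoxifen and 50.7, 52.3 and 59.3 FPKM with tamoxifen+primidone. It fell with tamoxifen (log2 fold change -0.45 ± 0.09, edgeR adjusted p = 0.042), and with tamoxifen+primidone it had -0.35 ± 0.09 (adjusted p = 0.0503). The call was lost without any 1 control or tamoxifen library (adjusted p = 0.0918 to 0.154 over these 6) and without the 2 libraries with high adipocyte sums (0.0968). Tll2, a protease of the family that removes procollagen C-propeptides, rested on few reads, with 32, 17 and 22 counts in controls, 1, 1 and 3 with tamoxifen and 6, 8 and 7 with tamoxifen+primidone. Its summed counts per total counts with tamoxifen were 0.0696 times those of control (exact 95% interval 0.0219 to 0.170, counting error only), and it fell in edgeR (adjusted p = 0.0317). That call was lost without any 1 control or tamoxifen library (adjusted p = 0.0632 to 0.113 over these 6), without the 2 libraries with high adipocyte sums (0.0644) and with unfiltered limma (0.134). Adamts14, a procollagen N-proteinase, measured 1.19, 0.717 and 0.845 FPKM in controls, 1.39, 2.54 and 2.46 FPKM with tamoxifen and 1.55, 1.85 and 1.32 FPKM with tamoxifen+primidone (log2 fold change with tamoxifen 1.21 ± 0.27, edgeR adjusted p = 0.0563).

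**Figure D5:**
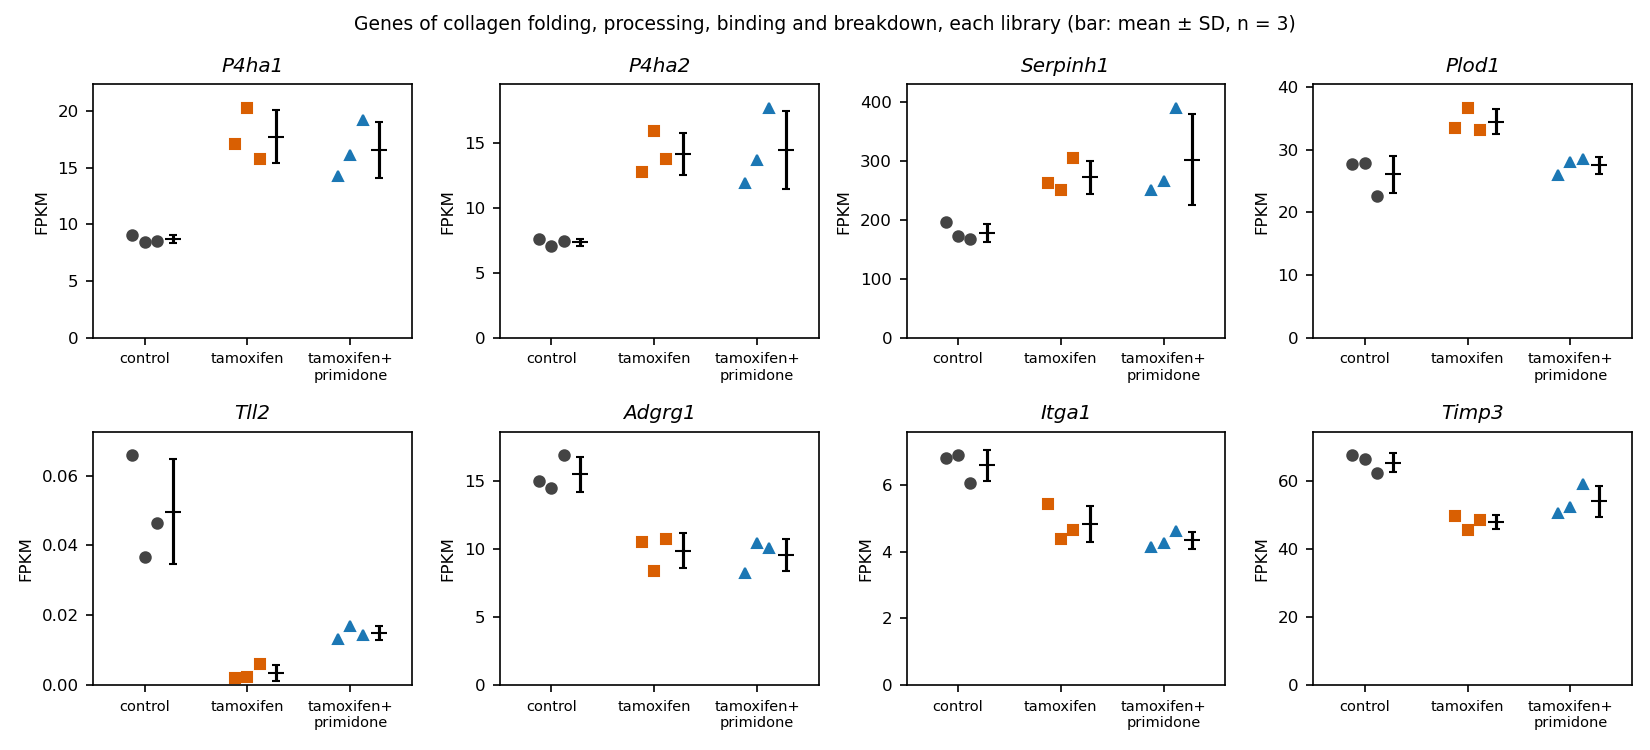
FPKM (vertical axis, from 0) of 8 genes of collagen folding, processing, binding and breakdown in each library of the 3 groups, with the mean ± SD (n = 3) as a bar beside the points. P4ha1, P4ha2 and Serpinh1 lie higher and Adgrg1, Itga1, Timp3 and Tll2 lower in all 6 treated libraries than in any control, while Plod1 is highest with tamoxifen.

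The remaining named genes of these lists did not pass in either comparison with control. Mmp2, a gelatinase, averaged 88.3 FPKM in controls, 108 FPKM with tamoxifen and 117 FPKM with tamoxifen+primidone (edgeR adjusted p = 0.273 and 0.146). Bmp1, the main procollagen C-proteinase, averaged 15.3, 18.4 and 20.4 FPKM (edgeR adjusted p = 0.26 and 0.106). The collagen receptor Ddr2 averaged 19.4, 19.7 and 26.1 FPKM (edgeR adjusted p = 0.979 and 0.202), and Itga2, the alpha 2 integrin chain, 8.31, 12.3 and 5.36 FPKM (adjusted p = 0.36 and 0.187). Loxl2, a lysyl oxidase, averaged 10.98, 12.5 and 9.03 FPKM (edgeR adjusted p = 0.557 and 0.181). For Itga10, Fap and Timp1 the edgeR adjusted p ran from 0.163 to 0.72.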

How the data were processed

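RNA was sequenced from 9 mouse uteri in 3 groups of 3. The build GRCm39 and the tools HTSeq, HISAT2, DESeq2 and R 3.2.0 are named, with no roles, in the submitters' processing notes, and the sources used here give no annotation or strand setting. Raw read counts and FPKM per gene symbol were deposited by the authors. The lengths that FPKM and counts imply were whole within 0.01 for 99.90% of genes. Libraries were grouped by their titles. Replicates differed beyond counting noise (chi-square per degree of freedom 19.57 to 78.47), so none was counted as a repeat.

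Counts entered a quasi-likelihood fit in edgeR 4.0.16 under R 4.3.3 (TMM factors, its default low-count filter by group, robust dispersions, all 9 libraries in 1 fit), two-sided, with Benjamini-Hochberg adjustment over the 15186 genes that passed the filter and a threshold of 0.05. Each standard error was derived from the log2 fold change and its F statistic. Whether groups overlap is read per gene from FPKM, and counted over members from CPM. The procedure was tested on simulated data. Shares of counts and chain ratios were compared with an exact two-sided permutation test in scipy 1.17.1. Alternatives were DESeq2 1.42.0, its size factors, upper-quartile factors, no filter, only the 6 libraries compared, a replicate block, limma 3.58.1 on log2 FPKM with pseudocounts of 1 and 0.1, each library left out, and, added after seeing the data, leaving out the 2 libraries with the highest adipocyte sums.

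Named members are those that passed, the 12 with the highest mean FPKM and the 5 with the smallest p in each comparison, and others are given by level as the classes are described. Named pathway genes are those that passed and up to 3 more per list with the smallest p. The members and lists were chosen with earlier results of these data known.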

Additional observations from a re-analysis of the deposited data

How the results depend on the processing

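Each result was recomputed under 19 alternatives where they applied, and the cause of the differences was not tested. Collagen calls for tamoxifen against control (1 in the analysis reported) were 9 with DESeq2, 2 with its size factors, 2 without a filter, 2 with only the 6 libraries, 0 with upper-quartile factors, 0 with each limma setting, 0 without the 2 high-adipocyte libraries and 0 to 2 with 1 library left out. For tamoxifen+primidone against tamoxifen (0) they were 5 with DESeq2 and 0 to 0 with 1 library left out. For tamoxifen+primidone against control (2) they were 6 with DESeq2, 1 with only the 6 libraries, 1 without the high-adipocyte libraries and 0 to 3 with 1 left out. In the test over the 3 groups (1) they were 15 with DESeq2, 2 with limma on log2 FPKM at either pseudocount, 0 without a filter, 0 without the high-adipocyte libraries and 0 to 2. For this test the share of all genes was counted only in the edgeR fit reported. The DESeq2 and limma counts therefore have no background and cannot be read as a result about collagens. Over all genes, tamoxifen against control (233) gave 1112 with DESeq2, 546 with only the 6 libraries, 144 with unfiltered limma, 108 without the high-adipocyte libraries (61 higher, 47 lower, against 87 and 146) and 22 to 439 with 1 left out. Tamoxifen+primidone against tamoxifen (2) gave 578 with DESeq2, 9 with its size factors, 21 without a filter, 1, 1 and 0 with limma, 89 without the high-adipocyte libraries and 0 to 85. Tamoxifen+primidone against control (812, of which 325 higher and 487 lower) gave 1882 with DESeq2, 373 without the high-adipocyte libraries and 122 to 800; upper-quartile factors gave 431 higher and 400 lower, and limma on log2(FPKM + 1) 629 and 321. Pathway calls in the 3 comparisons (5, 0 and 5) were 10, 4 and 10 with DESeq2, 3 with unfiltered limma in the first, 1 and 1 without the high-adipocyte libraries in the first and second, and 1 to 7, 0 to 0 and 1 to 6 with 1 left out. Whether replicate numbers pair the libraries was not settled: same-numbered deviations correlated from -0.134 to 0.177, and 5 of 9 libraries correlated best with their own number. A replicate block gave 317, 53 and 984 calls over all genes and 1, 0 and 3 collagen calls (Col20a1; Col24a1, Col4a5 and Col8a2), with Col6a6 at an adjusted p of 0.0566 in edgeR. Differences near 0 changed sign. For tamoxifen+primidone against control the summed share became -0.0233 percentage points of FPKM, -748 CPM, or -0.089 to 0.174 with 1 library left out. Log2 ratio differences with 1 left out ran from -0.01 to 0.09 (Col1a1 to Col1a2) for tamoxifen against control, from -0.07 to 0.05 (Col1a1 to Col1a2), -0.19 to 0.05 (Col3a1 to Col1a1) and -0.12 to 0.14 (Col5a2 to Col1a1) for tamoxifen+primidone against tamoxifen, and from -0.02 to 0.09 (Col1a1 to Col1a2) and -0.03 to 0.24 (Col6a3 to Col6a1) for tamoxifen+primidone against control. Among single genes, tamoxifen+primidone against control became -0.02 for Col3a1, -0.02 for Col5a1, -0.05 for Col5a2, -0.07 for Col12a1 and -0.01 for Plod1 without the high-adipocyte libraries, 0.00 for Plod1 without a filter, and 0.01 (upper-quartile) and 0.06 (limma) for Col4a1. With 1 library left out it ran from -0.05 to 0.19 for Col3a1, -0.23 to 0.00 for Col6a2, -0.13 to 0.08 for Col4a1, -0.34 to 0.10 for Col6a3, -0.02 to 0.20 for Col4a2, -0.05 to 0.17 for Col5a1, -0.05 to 0.14 for Col5a2, -0.07 to 0.23 for Col12a1, -0.17 to 0.78 for Col9a2 and -0.08 to 0.05 for Plod1. Tamoxifen against control became -0.14 for Col1a1 and -0.35 for Col24a1 without the high-adipocyte libraries, and 0.00 and -0.01 for Col24a1 with upper-quartile factors and the block; with 1 left out it ran from -0.14 to 0.19 for Col1a1, -0.14 to 0.11 for Col1a2, -0.35 to 0.28 for Col24a1 and -0.14 to 0.09 for Ddr2. Col6a6 between the treated groups was 0.00 with upper-quartile factors, 0.04, 0.05 and 0.04 with limma, 0.06 without the high-adipocyte libraries and -0.11 to 0.11 with 1 left out.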
